A study of Mus musculus with 57 samples.

Results

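H3K27ac, the acetylation of lysine 27 on histone H3, was compared between wild-type mouse EpiSCs given CHIR99021 for 24 h and the same kind of cells at 0 h. The comparison rests on 3 ChIP-seq libraries, 2 at 24 h and 1 at 0 h, of the 57 samples of the series, of which 32 have a list of peaks. They were chosen by their labels, which give the mark, the genotype and the time. A region of the 24 h lists counted as gained when both 24 h replicates listed it and the 0 h list did not. A region of the 0 h list counted as lost when neither 24 h replicate overlapped it.

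EpiSCs are pluripotent lines derived from the postimplantation epiblast, the tissue that forms the body of the embryo at gastrulation. The explants came from embryos of stage E6.0 and were grown with activin A and Fgf on feeders and then without feeders on fibronectin. At 24 h the Wnt inhibitor IWP2 had been withdrawn and 3 µM CHIR99021 added. The 0 h cells were kept in 2 µM IWP2. The labels do not say whether the libraries came from separate cultures or lines, and 1 library without a replicate stands for 0 h.

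Wnt signalling stabilises beta-catenin, which binds TCF and LEF factors at their target genes. CHIR99021 inhibits the kinase GSK3, which marks beta-catenin for destruction, and so switches the pathway on without a ligand. IWP2 inhibits Porcupine, the enzyme that lipid-modifies Wnt ligands before secretion. In the epiblast this pathway drives formation of the primitive streak and of posterior tissue. H3K27ac is deposited mainly by p300 and CBP and marks active promoters and enhancers.

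The 24 h lists held 29056 and 27422 regions in replicates 1 and 2, and the 0 h list held 14453. These covered 27.3 and 25.4 Mb at 24 h, and 11.0 Mb at 0 h. A typical region was 716 bp long in replicate 1 and 708 bp in replicate 2, against 602 bp in the 0 h library (medians). The height of each region, recovered from its fold enrichment and p-value, gave whole numbers of overlapping fragments in all but 1 region of each 24 h list and in all regions of the 0 h list. The genome-wide background was 7.41 and 6.62 fragments at 24 h, and 1.82 at 0 h, so the 24 h libraries were 4.07 and 3.64 times as deep on this measure. The measure assumes that the same fragment length and genome size were set for all lists, which could not be checked. The names of the regions also show that the 24 h lists and the 0 h list were made in different processing folders with a different setting. Stimulation, depth and processing cannot be told apart, and with 1 library against 2 the smallest p a permutation can give is 0.333. No test between times was therefore made. Intervals below are 95% Wilson intervals, which cover counting error only.

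Both 24 h replicates shared 24293 regions, counted as regions of replicate 1. Of these, 14350 were gained, which is 59.1% (58.5 to 59.7). Counted from the regions of replicate 2 the share was 59.3%, and the mean of both was 59.2% ± 0.181 (SD, n = 2). Both counts take the same shared regions, so this SD does not measure the spread between libraries. Of the 14453 regions at 0 h, 2098 were lost, which is 14.5% (14.0 to 15.1). Another 11835 of the 0 h regions were listed in both 24 h replicates, and 520 in 1 replicate alone. Libraries of the same group also differed. Replicate 2 did not list 16.4% of the regions of replicate 1, and replicate 1 did not list 9.73% of the regions of replicate 2. Counted against a single replicate in the same way, 15.6% of the 0 h regions were missing from replicate 1 and 17.0% from replicate 2. The first share lies within that span and the second just above it, and the share gained is well above it. That span compares lists of similar depth and length, while the 0 h list was shallower and shorter. The shares are therefore not alike in measure, and with lists cut to equal length the share gained was 35.5%.

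Regions were called promoter regions when they overlapped H3K4me3, a mark of transcription start sites, in Wnt3KO EpiSCs at 0 h, and distal regions otherwise. In the full lists, gained and lost regions both lay mainly outside promoters. Of distal regions in both 24 h replicates, 9040 of 10575 were gained, or 85.5% (84.8 to 86.1), against 5310 of 13718 promoter regions, or 38.7% (37.9 to 39.5). The shares averaged 85.5% ± 0.0531 for distal and 38.8% ± 0.181 for promoter regions over the regions of each replicate (SD, n = 2). Here too the same shared regions were counted from either list, so the SD is no spread between libraries. Of distal regions at 0 h, 2005 of 4190 were lost, or 47.9% (46.3 to 49.4), against 93 of 10263 promoter regions, or 0.906% (0.740 to 1.11). Against replicate 1 alone, 50.7% of distal and 1.29% of promoter regions were lost, and against replicate 2 alone 54.4% and 1.76%. Promoters thus kept nearly all of the H3K27ac regions listed at 0 h, while a large share of the distal regions was no longer listed.

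The same order held between the 24 h replicates, at a lower level. Of distal regions in replicate 1, 27.5% were missing from replicate 2, against 5.24% of promoter regions. Of distal regions in replicate 2, 17.2% were missing from replicate 1, against 2.94% of promoter regions. The distal losses at 24 h were above both of these shares, and the promoter losses were below both.

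**Figure D1:**
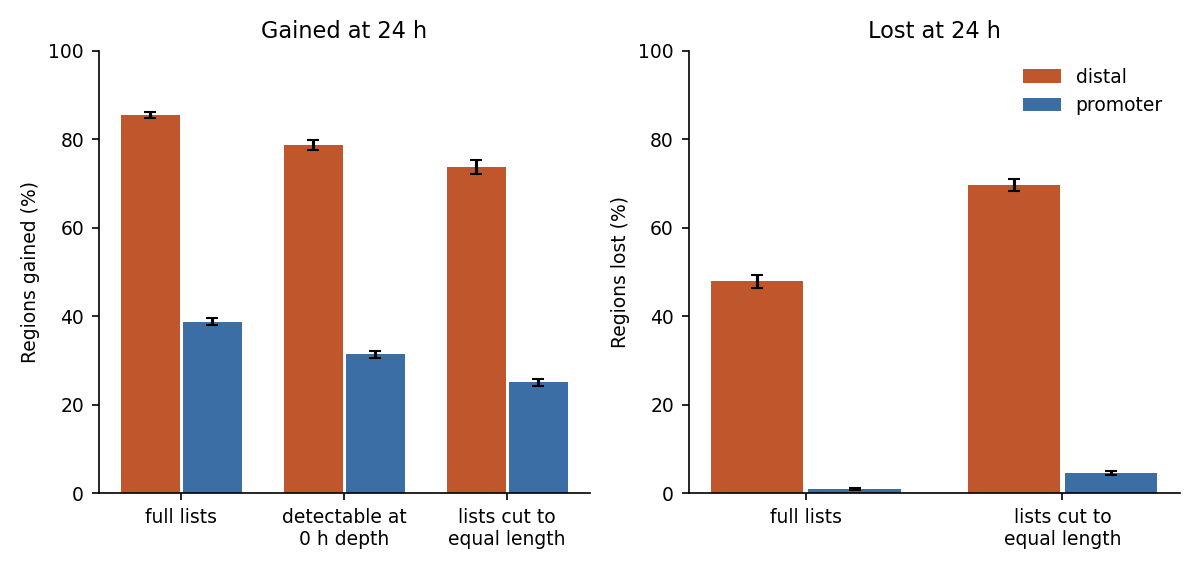
Share of H3K27ac regions gained (left) and lost (right) at 24 h of CHIR99021, in percent, for distal and promoter regions. Bars are single counts with 95% Wilson intervals. Distal regions lie above promoter regions in every pair, with 85.5% against 38.7% gained and 47.9% against 0.906% lost in the full lists.

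The greater depth at 24 h bears on the gains. Each 24 h region was scaled down to the background of the 0 h library, and it was called detectable when its expected −log10 p there still reached 5 in both replicates, the level in the names of the regions. This filter was added after the lists had been examined, and it gives an expected value with no counting error. It kept 16704 regions, or 68.8%, and of the gained regions it removed 47.6%. Of the detectable regions, 7523 were gained, or 45.0% (44.3 to 45.8). The shares were 78.8% (77.6 to 79.9) of distal and 31.4% (30.6 to 32.2) of promoter regions. In number, 3790 distal and 3733 promoter regions were gained. Scaled up to the 24 h depth by the same calculation, the 2098 lost regions had an expected −log10 p of 34.7 at the median and 17.1 at the lowest. Every 0 h region had already been called with a −log10 p of at least 5.63, so high values follow from the scaling itself. Whether depth bears on the losses was not tested.

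Cutting each list to its 14453 regions of highest −log10 q gave fewer gains and more losses. In the cut lists 4701 of 13258 shared regions were gained, or 35.5%, and 3383 of 14453 were lost, or 23.4%. The shares were again higher for distal than for promoter regions, with 73.8% against 25.1% gained and 69.6% against 4.54% lost. In number, most gains in these cut lists were promoter regions, with 2616 against 2085 distal regions. A region can leave a cut list because others rank above it, so these losses include regions that the full 24 h lists still hold.

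The shares were also taken within classes of strength, a value that comes from the same lists as the calls themselves. The share gained was lower at a higher expected −log10 p at the 0 h depth, and more so at promoters. In regions under 5, the share gained was 91.1% of distal and 86.4% of promoter regions. Between 10 and 15 it was 75.9% of distal and 47.8% of promoter regions. At 30 or more, 52 of 117 distal regions were gained, or 44.4% (35.8 to 53.5), against 91 of 3813 promoter regions, or 2.39% (1.95 to 2.92). The strongest promoter regions at 24 h were thus nearly all listed at 0 h, while 44.4% of the strongest distal regions were not.

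Losses showed the same order by strength at 0 h. Among regions with a −log10 p of 5 to 10, 55.7% of distal and 2.40% of promoter regions were lost. At 30 or more, 42 of 180 distal regions were lost, or 23.3%, against 0 of 1746 promoter regions (upper limit of the interval 0.220%).

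**Figure D2:**
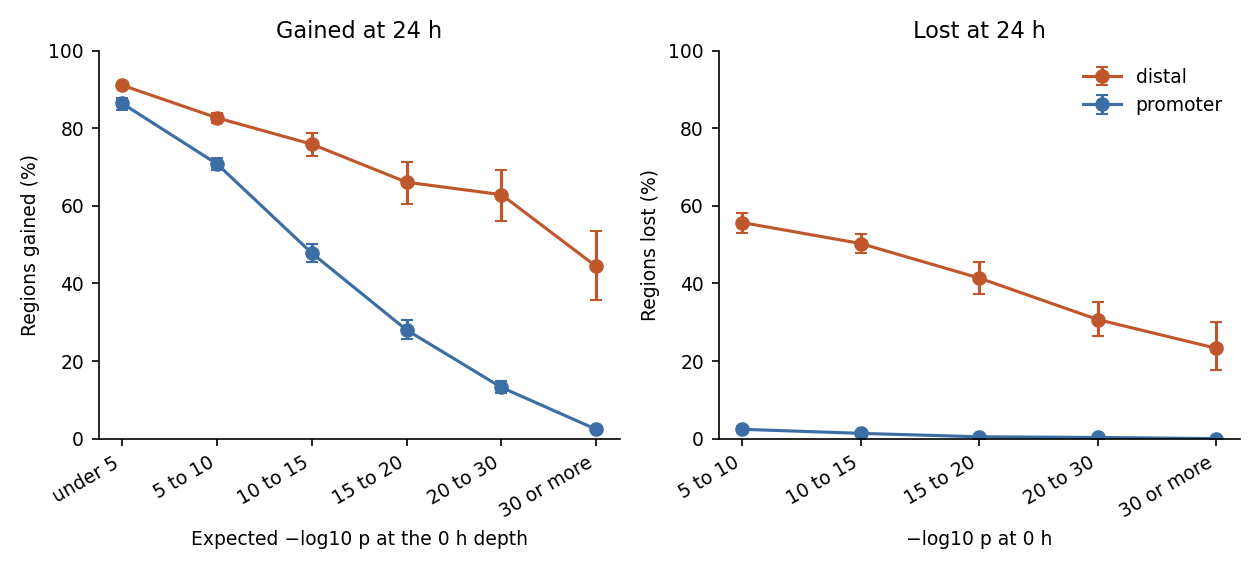
Share of regions gained (left, by the −log10 p expected at the 0 h depth) and lost (right, by the −log10 p at 0 h), in percent, for distal and promoter regions, with 95% Wilson intervals. Both shares are lower in the strongest class than in the weakest, and the distal line stays above the promoter line in every class, reaching 44.4% against 2.39% gained in the strongest.

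Gained regions were shorter than those present at both times. Their median length was 633 bp, against 1353 bp for 24 h regions also listed at 0 h, and 37.0% of them were promoter regions, against 84.6%. Lost regions had a median of 418 bp, against 658 bp for 0 h regions in both 24 h replicates, and 4.43% of them were promoter regions, against 84.9%. Length and class are therefore bound together, and the shares were taken within each. Length comes from the same lists as the calls. A longer region also meets an overlap of 1 bp more readily, so the order by length is not independent of the rule.

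Among distal regions the share gained was 91.6% under 500 bp, 86.4% from 500 to under 1000 bp, 76.4% from 1000 to under 2000 bp and 69.4% at 2000 bp or more. Among promoter regions it was 86.0%, 58.7%, 20.3% and 3.82% in the same classes. The 2 kinds were closest in the shortest class and differed most in the longest. The share lost among distal regions was 54.3%, 43.4%, 31.8% and 17.9% in these classes. Among promoter regions it was 1.89% in the shortest and 0.722% in the next class, with 0 of 2453 lost from 1000 to under 2000 bp and 1 of 383 at 2000 bp or more.

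**Figure D3:**
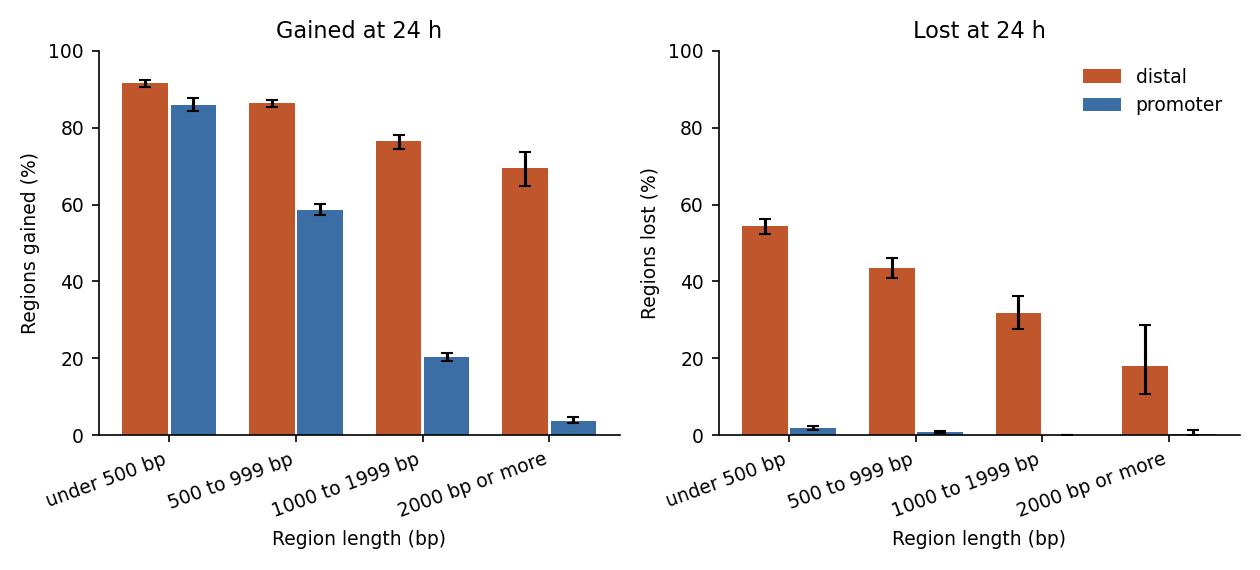
Share of regions gained (left) and lost (right) at 24 h, in percent, by region length in bp, for distal and promoter regions, with 95% Wilson intervals. Promoter gains drop to 3.82% in the longest class while distal gains stay at 69.4%, and distal losses exceed promoter losses in each class.

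Few gained or lost regions lay next to a region of the other time. Of gained regions, 8.63% lay within 1 kb of a region at 0 h. Of lost regions, 17.7% lay within 1 kb of a 24 h region, which was 15.8% of distal and 59.1% of promoter losses. Promoter losses were thus mostly next to a region listed at 24 h.

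Open chromatin in wild-type cells, measured by ATAC-seq in other libraries, was listed at different shares of the distal regions at the 2 times. ATAC-seq marks DNA that a transposase can reach, and 1 library each was listed at 48 h of CHIR99021 and at 0 h. Their lists held 38032 regions at 48 h and 41309 at 0 h. Of lost distal regions, 7.83% (6.73 to 9.09) were open at 48 h, against 42.0% (39.9 to 44.2) at 0 h. Of distal regions kept from 0 h in both 24 h replicates, 58.9% were open at 48 h, against 72.3% at 0 h. Of gained distal regions, 46.8% (45.8 to 47.9) were open at 48 h, against 35.7% (34.7 to 36.6) at 0 h. The direction at gained regions was thus opposite to that at lost and kept regions. Within 300 bp at the summit of each region, which takes region length out, the shares were 35.5% at 48 h against 27.9% at 0 h for gained, 5.89% against 33.2% for lost and 45.0% against 63.1% for kept distal regions.

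A minority of the gained distal regions was open at 48 h alone. Of all 9040, 28.6% were open at both times, 18.2% at 48 h alone, 7.02% at 0 h alone and 46.1% at neither. Of the 3790 that were detectable at the 0 h depth, 37.4% were open at both times, 24.4% at 48 h alone, 4.72% at 0 h alone and 33.5% at neither. Of the lost distal regions, 34.9% were open at 0 h alone and 57.3% at neither time. Of the 50 lost distal regions of highest fold enrichment, 5 were open at 48 h and 44 at 0 h. Of the leading 50 gained distal regions, 44 were open at 48 h and 29 at 0 h.

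Embryos were measured by ATAC-seq as well. In the pair of libraries from E6.0, the stage from which these EpiSCs were derived, 29.5% and 35.1% of the lost distal regions were open. The shares were 9.68% and 25.6% in the pair from E7.2 and 4.84% in the single library of posterior tissue from E7.5. Among gained distal regions, 35.7% and 42.7% were open in the E6.0 pair, 29.3% and 51.7% in the E7.2 pair, and 33.5% in the posterior tissue. The E7.2 libraries thus differed widely from each other, and their lists held 33881 and 72433 regions. The E6.0 lists held 57569 and 61933 regions and the posterior list 42338. The shares were not corrected for the length of the list. Of kept distal regions, 61.5% and 66.3% were open in the E6.0 pair, 40.5% and 63.7% in the E7.2 pair, and 37.5% in the posterior tissue. The posterior share was thus below all 4 libraries of the earlier stages for lost and kept regions alike, and within their range for gained regions.

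Wnt3KO EpiSCs, which lack the ligand gene Wnt3, gave a second series of H3K27ac, with 1 library a time. The labels name no IWP2 for its 0 h library, against 2 µM for the wild-type 0 h library. After 0, 6, 12 and 72 h of CHIR99021, these libraries listed 4.19%, 2.59%, 1.30% and 0.150% of the distal regions lost in wild-type cells. The interval of the last share was 0.0509 to 0.439. They listed 28.7%, 20.0%, 23.8% and 8.48% of the kept distal regions, and 3.50%, 2.50%, 3.20% and 2.56% of the gained ones. The share of lost regions was thus lower at each later time, while the gained regions stayed between 2.50% and 3.50%. These Wnt3KO lists held 12135, 10225, 11636 and 10161 regions in the same order of times. The shares were not corrected for the length of the list. Of the gained distal regions, 94.5% were listed in Wnt3KO cells at neither 72 h nor 0 h, close to the 95.8% of lost distal regions and above the 68.9% of kept ones.

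**Figure D4:**
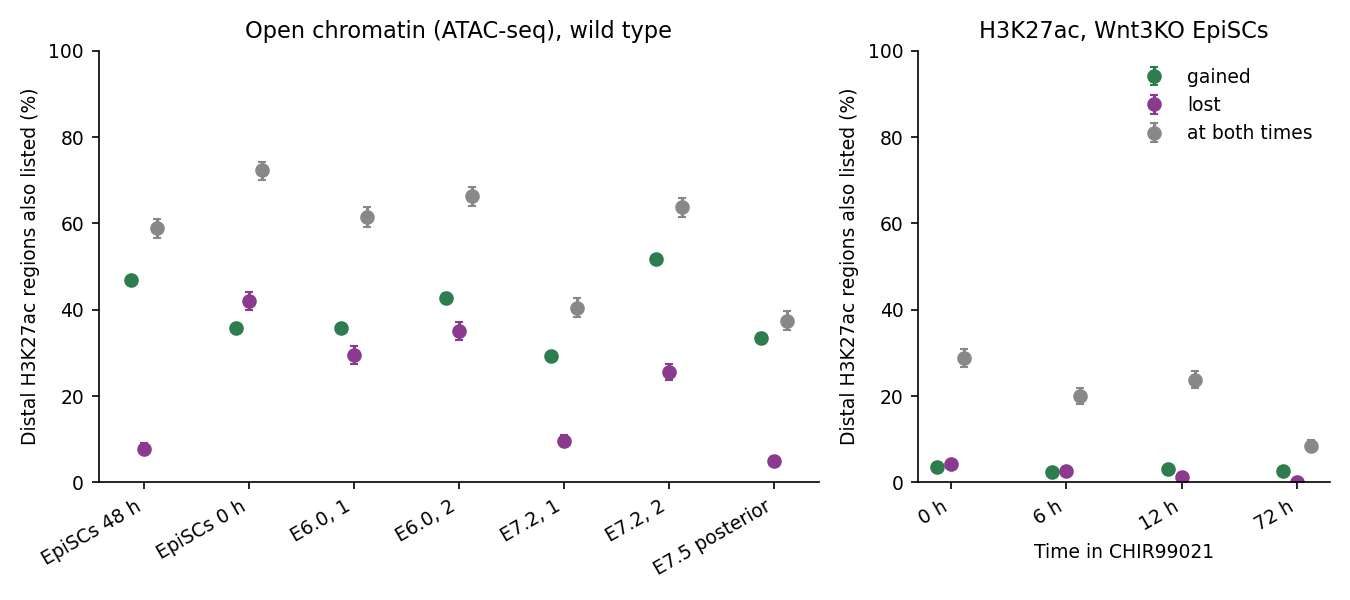
Share of gained, lost and kept distal H3K27ac regions, in percent, that were also listed as open in 7 wild-type ATAC-seq libraries (left) and as H3K27ac in Wnt3KO EpiSCs at 4 times of CHIR99021 (right), with 95% Wilson intervals. Lost regions drop to 7.83% open at 48 h, against 42.0% at 0 h, while gained regions lie at 46.8% against 35.7%.

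Gained promoters had open chromatin at both times. They were open at 96.5% at 48 h, against 97.0% at 0 h. Promoters with H3K27ac at both times were open at 98.9% and 99.3%, so open chromatin was not particular to gained promoters. In Wnt3KO cells 28.5% carried H3K27ac at 72 h, against 32.7% at 0 h, and the values were 78.7% and 84.3% for promoters listed in wild-type cells at both times. Many were thus listed without stimulation in the other genotype, where the labels name no IWP2 at 0 h. Genotype and IWP2 cannot be told apart in this comparison. Of the leading 50 gained promoters, 48 were listed in Wnt3KO cells at 72 h and 44 at 0 h.

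Polycomb marks were more frequent at gained promoters. H3K27me3, which Polycomb repressive complex 2 deposits, was listed in the 2 unstimulated Wnt3KO libraries at 7.04% and 12.2% of gained promoters, against 0.642% and 0.856% of promoters at both times. Ring1b, a catalytic subunit of Polycomb repressive complex 1, was listed at 3.73% and 4.26% of gained promoters, against 0.678% and 1.38%. The shares were lower among gained promoters detectable at the 0 h depth. There they were 5.17% and 9.67% for H3K27me3, and 2.68% and 3.43% for Ring1b. At 72 h of CHIR99021 the share with H3K27me3 was 4.09% of gained promoters, against 0.690%, and with Ring1b 1.51%, against 1.33%.

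The gained distal region of highest rank, chr9:97003544-97004936 in mm9, had a fold enrichment of 22.1 and 20.4 in the 24 h replicates and was not listed at 0 h. It was 1393 bp long, held 239 and 200 fragments at its summit, and was open at 48 h and not at 0 h. The next, chr14:58152133-58155228, had 18.2 and 19.3 and was open at both times. The other 3 of the leading 5 were on chromosome 11, at chr11:87561818-87564032, chr11:53340369-53343263 and chr11:19885013-19888531, each with a fold enrichment between 17.1 and 19.6 in either replicate and open at 48 h and not at 0 h. So 4 of the 5 leading distal gains were open at 48 h alone. Of these, chr11:53340369-53343263 lies within 100 kb of a region of the input libraries, which were not immunoprecipitated.

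The leading gained promoter was chr2:18593419-18594849, with a fold enrichment of 26.3 and 26.7. It was followed by chr10:120801646-120803088 with 25.9 and 24.8, and by chr11:54251581-54252523 with 22.5 and 25.9. All 5 leading promoters were open at both times and carried H3K27ac in Wnt3KO cells at 72 h and at 0 h. In that genotype they were thus listed before and after stimulation.

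The lost distal region of highest fold enrichment was chr15:65758168-65759573, with 17.9 at 0 h and 65 fragments at its summit. It was not open at 48 h and was open at 0 h. Next came chr7:66432806-66434820 with 17.1, chr3:93659389-93661454 and chr4:65990582-65992879 with 16.0 each, and chr8:99706470-99707687 with 14.8. That on chromosome 8 was also open at 0 h alone, those on chromosomes 3 and 4 were open at both times, and that on chromosome 7 at neither. In Wnt3KO cells none of the 5 was listed at 72 h, and at 0 h only that on chromosome 4 was. The leading lost promoter, chr12:38500284-38500984, had 11.7 and stayed open at 48 h.

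Changes were spread over the genome. On the 20 chromosomes with 100 shared regions or more, the share gained ran between 54.2% on chromosome 17 and 63.4% on chromosome 18, and the share lost was lowest on chromosome 17, at 10.0%, and highest on chromosome 12, where 113 of 595 regions were lost. In tiles of 100 kb, 7232 of 10997 held more gained than lost regions, or 65.8%, and 1041 held more lost than gained, or 9.47%. Both kinds were present in 664 tiles. In the cut lists, 35.3% of 8707 tiles held more gained and 23.5% more lost regions. In the full lists, tiles with 5 gained regions or more were 3.25% of tiles and held 14.8% of all gained regions. Most gained regions thus lay outside such tiles. Of gained regions, 49.0% lay in tiles with no region at 0 h.

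The tile with the most gained regions, chr11:3000001-3100000, held 19 of them, but the input libraries listed 27 and 30 regions there. Next was chrY:2800001-2900000 with 12 gained regions, where 22 and 25 regions at 24 h stood against 13 at 0 h, with none in the ATAC-seq lists of 48 h or 0 h. The third, chr6:52100001-52200000, also held 12, of which 10 were detectable at the 0 h depth. It held 19 and 15 regions at 24 h, against 4 at 0 h, and 18 open regions at 48 h, against 12 at 0 h. After it came chr11:120500001-120600000 with 11 gained regions, and chr11:19900001-20000000 with 10, which held no region at 0 h.

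The tiles with the most losses held 5 lost regions each. In chr1:8500001-8600000 and chr2:16700001-16800000 neither 24 h replicate listed any region, against 5 at 0 h. In chr4:99300001-99400000 each 24 h replicate listed 1 region, against 6 at 0 h, and 4 of its 5 losses were promoter regions. The other tiles were chr12:88200001-88300000 with 8 and 8 regions at 24 h, against 12 at 0 h, and chr7:3200001-3300000 with 7 and 6, against 9. All 0 h regions were lost in 888 tiles, of which 49 had held 3 or more.

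Windows of 100 kb around 6 gene starts were read by name. No mm9 annotation was used, and the starts were placed from memory of mm9. H3K4me3 of Wnt3KO cells lay within 2 kb of each. Of 52 genes listed, these 6 were kept because their mm9 starts had been noted without working from another build. The other 46 were removed after their values had been seen. The windows can hold other genes. Of the 100 kb windows centred on the 16287 H3K4me3 regions at 0 h, 64.9% held more gained than lost regions and 3.43% more lost than gained, so a net gain around a gene was common and a net loss was not.

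T encodes Brachyury, the transcription factor that marks the primitive streak and is a known Wnt target. Its promoter is shown as 1 example of a start where H3K27ac was gained. The start of Eomes gained a region as well, and its promoter is not shown. The 250 bases before the start, from RefSeq in GRCm38.p6 (chr17:8434173-8434422, plus strand), have in capitals the 1 match to the TCF and LEF motif letters CTTTGNN, with each N limited to A or T, on either strand. Of all 32851 RefSeq promoter windows of this length, 14.8% hold such a match, and a match is no evidence of binding. The windows before the RefSeq starts of Otx2, read in the same way, held no match.
T: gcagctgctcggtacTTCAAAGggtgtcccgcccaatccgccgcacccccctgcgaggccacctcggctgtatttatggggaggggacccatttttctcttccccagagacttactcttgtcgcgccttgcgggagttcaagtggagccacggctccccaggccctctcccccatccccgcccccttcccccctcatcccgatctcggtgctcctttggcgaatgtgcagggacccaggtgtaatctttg

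Around T the 24 h replicates listed 4 and 5 regions, against 0 at 0 h. Of these, 4 were gained, and 3 of the gained regions were detectable at the 0 h depth. The region within 2 kb of the start, chr17:8625289-8626934 in mm9 in replicate 1, had a fold enrichment of 14.4 and 13.3 and summits of 158 and 127 fragments. Of 4 kb windows centred on the 16287 H3K4me3 regions, 4394 were listed in both 24 h replicates and not at 0 h, so a gain at a start was common. The window held 7 open regions at 48 h, against 4 at 0 h. In Wnt3KO cells it held H3K27ac regions at 12 h alone, where it held 1.

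Eomes, a T-box factor of the primitive streak and early endoderm, had 4 and 3 regions at 24 h, against 1 at 0 h. The region within 2 kb of its start had a fold enrichment of 4.16 and 3.67 and was not listed at 0 h. Its summits held 34 and 27 fragments. The window held 2 gained regions, of which 1 was detectable at the 0 h depth, and 5 open regions at 48 h, against 7 at 0 h.

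The windows of the pluripotency genes held H3K27ac regions at both times. Pou5f1, which encodes the pluripotency factor Oct4, had 8 and 7 regions at 24 h, against 5 at 0 h. Of the 24 h regions 3 were gained, 1 of them detectable at the 0 h depth, and of the 0 h regions 1 was lost. Its start was listed in all 3 libraries with a fold enrichment of 6.90 and 8.26 at 24 h, against 10.2 at 0 h. Sox2, whose product partners Oct4, had 9 and 8 regions at 24 h, against 9 at 0 h, with 2 gained, neither of them detectable at the 0 h depth, and none lost. Nanog, a homeobox gene of pluripotency, had 5 and 5 regions at 24 h, against 6 at 0 h, with none gained and none lost. Its start had 3.27 and 3.79 at 24 h, against 5.99 at 0 h. Fold enrichment differs in scale between libraries of different depth, and these levels were not compared by a test.

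Otx2, a homeobox gene of the epiblast and anterior neural tissue, had no H3K27ac region around it at 24 h. Neither 24 h replicate listed a region in its window, against 2 at 0 h, and both were lost. The one within 2 kb of the start, chr14:49286095-49286681, had a fold enrichment of 8.15 and 22 fragments at 0 h. Of 4 kb windows on H3K4me3 regions, 0.270% were listed at 0 h and in neither 24 h replicate. The window held 4 open regions at 48 h, against 8 at 0 h. In Wnt3KO cells the number of H3K27ac regions in it was 2, 4, 1 and 0 after 0, 6, 12 and 72 h of CHIR99021. The starts of Pou5f1 and Sox2 had H3K27ac within 2 kb in all 3 libraries, and that of Otx2 at 0 h alone. Feeder and naive pluripotency markers are not analysed here, so the cell type was not tested.

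**Figure D5:**
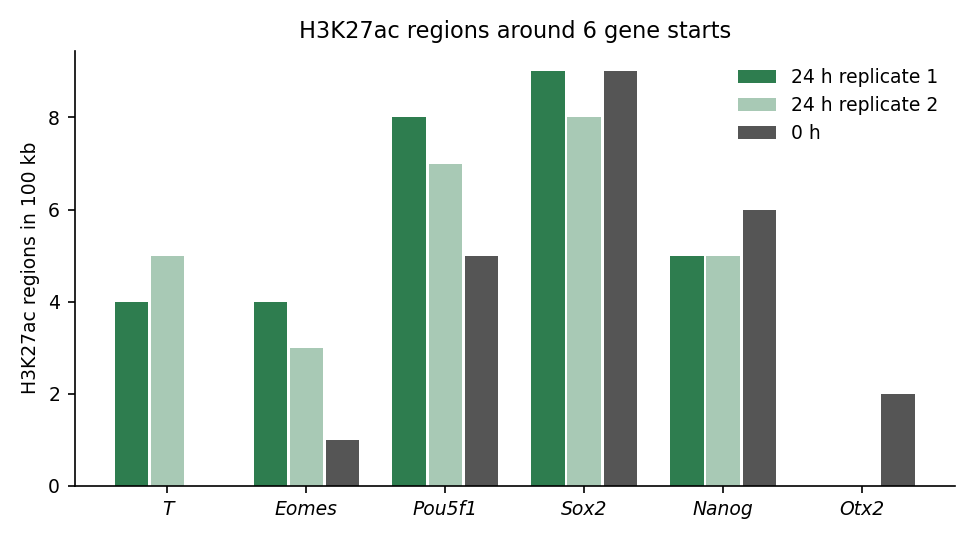
Number of H3K27ac regions in 100 kb around the starts of 6 genes, in both 24 h replicates and at 0 h; each bar is 1 library. T has 4 and 5 regions against 0, Otx2 has 0 and 0 against 2, and Sox2 has 9 and 8 against 9.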

How the data were processed

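The authors deposited 1 list of peaks per library in mm9 coordinates. Per the file headers and names of the peaks, each list gives, as deposited, a fold enrichment at the summit, a −log10 p, a −log10 q and a score. Per the submitters' processing notes, Bowtie 1.1.0, SAMtools 0.1.19 and MACS2 2.1.0 were used for the 0 h library, with no role stated; no tool is named for the 24 h libraries. Peaks were called per library.

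Regions were matched by an overlap of 1 bp or more with Python 3.11.15, numpy 2.4.6, pandas 2.3.3 and scipy 1.17.1. Summit heights were solved from fold and p as whole numbers within 0.01, assuming a Poisson p. The overlap code was tested on simulated lists. Tiles took regions by midpoint. Alternatives were a larger overlap, a stricter q, cut lists, merged regions, another promoter list, shifted tiles, regions away from input, and each 24 h replicate left out. The depth filter and the 300 bp summit windows were added after the data were seen.

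The libraries, splits and genes were chosen with earlier results of these data known. Named regions are the 5 distal and 5 promoter regions gained with the best mean rank of fold, those lost with the highest 0 h fold, and the 5 tiles with most gains or losses. Of 52 genes listed for windows, 46 are not analysed here, including all feeder and naive pluripotency markers. Their starts had been, or could have been, worked out from another build, which is not a sound placement. They were removed for that reason after their values had been seen, and the 6 kept are those whose mm9 start had been noted without such a step.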

Additional observations from a re-analysis of the deposited data

How the results depend on the processing

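No paired analysis was possible because the 0 h group has 1 library with no replicate number. The number gained was 14350, against 4701 with lists cut by −log10 q, 4675 with lists cut by fold and 7523 among regions detectable at the 0 h depth; it ran between 17223 and 18799 with 1 of the 24 h replicates left out. The number lost was 2098, against 3383 and 3483 in the lists cut by −log10 q and by fold. Tiles with more gained regions numbered 7232, against 3076 and 3196 in lists cut by −log10 q and by fold and 4701 for detectable regions. Tiles with more lost regions numbered 1041, against 2045 and 2086 in those cut lists. The fewer calls at 24 h in the cut and detectable lists follow from their construction, which keeps fewer 24 h regions.

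No difference in percent turned its direction in any of the alternatives run, though in number most gains of the cut lists were promoter regions. Percent gained, distal minus promoter, was 46.8 points; it was 47.3 with an overlap of 50% of the smaller region, 46.3 with a −log10 q of at least 5, 48.8 in both kinds of cut list, 50.6 with regions merged, 46.9 with H3K4me3 of any time, 46.6 away from input regions, 47.4 among detectable regions, and between 46.3 and 46.6 with 1 replicate left out. Percent lost, distal minus promoter, was 46.9 points; it was 65.1 and 65.5 in lists cut by −log10 q and by fold, 50.1 with H3K4me3 of any time, and between 49.4 and 52.6 with 1 replicate left out. Percent gained, shortest minus longest class, was 74.7 points; it was 75.8 with the larger overlap, 69.1 and 68.9 in the cut lists, 64.0 with regions merged, 71.3 among detectable regions, and between 76.7 and 77.2 with 1 replicate left out. Percent lost, shortest minus longest class, was 20.7 points; it was 23.6 with the larger overlap, 30.8 and 32.0 in the cut lists, 23.4 with regions merged, and between 22.5 and 24.7 with 1 replicate left out. The cause was not tested for these differences. Read totals are unknown, so the depth is known only relative to 0 h, and only if fragment length and genome size were set alike.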
